A study of Rattus norvegicus with 15 samples.

Results

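The genes described here are the 10 components of gp130, interleukin-4 (IL-4) receptor and STAT3 signaling that were chosen for study in the rat retina: *Lif*, *Il6st*, *Lifr*, *Osmr*, *Il6r*, *Cntfr*, *Il4r*, *Jak3*, *Stat3* and *Socs3*. They were picked by their gene symbols among the 20375 genes listed, and the choice was made with their measured values over the 5 groups known. For this reason their levels and differences are given as a description, with no p-value. All 10 were found by symbol, and all 10 passed the filter on low values that left 15424 genes for testing.

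gp130, the product of *Il6st*, is the receptor chain shared by the interleukin-6 family of cytokines, and it signals only once it is paired with a partner such as the receptors for LIF, oncostatin M, interleukin-6 or CNTF. Pairing activates Janus kinases, which phosphorylate STAT3, and STAT3 switches on its target genes, among them *Socs3*, whose product blocks gp130 in return. In the injured retina, LIF is known as a signal of photoreceptor stress that acts on Müller glia, the radial support cells of the tissue. The IL-4 receptor alpha chain belongs to another branch, which uses the common gamma chain, JAK1, JAK3 and STAT6.

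Messenger RNA was sequenced from retinas of wild-type Sprague-Dawley rats labelled as postnatal week 12 and post-transplant day 31, with 3 libraries in each of 5 groups. The NT group was healthy and received no treatment. The other 4 groups received sodium iodate (NaIO3), a toxin that injures the pigment epithelium and then the photoreceptors, at 40 mg/kg systemically. Sham retinas were injected with vehicle, MSC retinas with human Wharton's jelly mesenchymal stem cells, and MSCEPO retinas with the same kind of cells carrying a lentiviral construct for human erythropoietin and GFP and sorted for it. The DPSC group received cells under an abbreviation that the labels leave unexplained. Cells went into the vitreous. The paper places this injection, for MSC and MSCEPO, 4 days before the sodium iodate. Rats with xenografts were also given dexamethasone at 2 mg/kg and then cyclosporin at 10 mg/kg per day, so the cells and the immunosuppression cannot be told apart in any comparison of a cell group. Nothing in the labels ties each library to a separate animal, so p-values measure the spread between these libraries.

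Expression is given as deposited, in rlog values, the regularized log2 scale of DESeq2. This scale adjusts for library size and draws the values of a gene in toward its average, so the folds below understate changes, and read depth is unknown. Levels are not compared between genes, because rlog values are not scaled to transcript length. Library medians lay between 8.63 and 8.82. *Gnat1*, the rod transducin chain used to check the tissue, was at 17.91, 18.04 and 17.83 in NT and at 16.99, 16.83 and 16.45 in Sham, and it ranged from 14.71 to 16.83 in the cell groups. MSCEPO replicate 3 stood apart from its group: 1548 of the 15424 genes (10.0%) lay over 1 log2 unit below the mean of the other MSCEPO libraries, and 5 of the 10 pathway components did too (*Il6st*, *Lifr*, *Osmr*, *Il4r* and *Socs3*). In MSC replicate 1, 1001 genes (6.49%) lay over 1 unit above the mean of the other MSC libraries, with *Il6r* the single component to do so. Marker lists are given by their summed level, the sum of 2 to the power of rlog over the markers. Lens markers summed to 132272 in MSCEPO replicate 3 and to 510670 and 298238 in DPSC replicates 1 and 3, against 2864 to 58593 in the other 12 libraries.

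*Il4r*, the alpha chain through which both IL-4 and IL-13 signal, showed the widest difference of the 10 between healthy and NaIO3 retinas. Its rlog values were 8.43, 8.21 and 8.03 in the NT libraries and 10.63, 10.80 and 10.74 in Sham. In the cell groups they were 11.37, 11.13 and 11.38 (MSC), 11.15, 11.40 and 10.00 (MSCEPO) and 10.09, 10.99 and 10.72 (DPSC). NT therefore lay below every other library without overlap. The mean was 8.22 ± 0.20 in NT (SD, n = 3) and 10.72 ± 0.09 in Sham, a difference of 2.50 with a standard error (SE) of 0.30, or 5.66-fold. The 3 MSC libraries were all above the 3 Sham libraries, by 0.57 on average (SE 0.30), while MSCEPO and DPSC overlapped Sham.

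*Jak3*, the Janus kinase that docks on the common gamma chain and is best known from lymphocytes, was at 6.98, 7.14 and 7.26 in NT and at 8.94, 8.30 and 8.59 in Sham. Sham exceeded NT by 1.49 (SE 0.18), or 2.80-fold. The cell groups were higher again in their means, with 9.46, 8.99 and 9.01 in MSC, 8.92, 9.28 and 9.13 in MSCEPO, and 8.63, 8.91 and 8.90 in DPSC. The order of the groups was MSC, MSCEPO, DPSC, Sham and NT, and the neighbours MSC and MSCEPO overlapped, as did DPSC and Sham. MSC differed from Sham by 0.54 (SE 0.18) without overlap. *Jak3* was not low in MSCEPO replicate 3, which differed from the mean of the other MSCEPO libraries by 0.03.

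*Stat3*, the transcription factor at the end of the gp130 branch, read 10.95, 10.88 and 10.83 in NT against 11.86, 11.90 and 11.72 in Sham. The difference was 0.94 (SE 0.13), which is 1.92-fold, and the groups were far apart relative to their SDs of 0.06 and 0.10. Values of 12.20, 12.01 and 12.02 in MSC were all above those of Sham, by 0.25 on average (SE 0.13). MSCEPO, with 11.98, 12.13 and 11.59, and DPSC, with 11.59, 11.95 and 11.74, lay on both sides of Sham. No NT library reached the lowest value of any other group.

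*Socs3*, the feedback inhibitor of gp130 and itself a STAT3 target, was measured at 5.98, 5.60 and 5.62 in NT and at 7.60, 7.14 and 7.61 in Sham. Sham was 3.28-fold higher, a difference of 1.72 (SE 0.28). The MSC libraries, at 8.25, 8.12 and 7.99, were above all of Sham by 0.67 on average (SE 0.28). In MSCEPO the values were 8.06, 8.81 and 7.39, and in DPSC 7.41, 7.88 and 7.63. MSCEPO replicates 1 and 2 were above Sham and replicate 3 lay within it, so the groups overlapped.

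**Figure D1:**
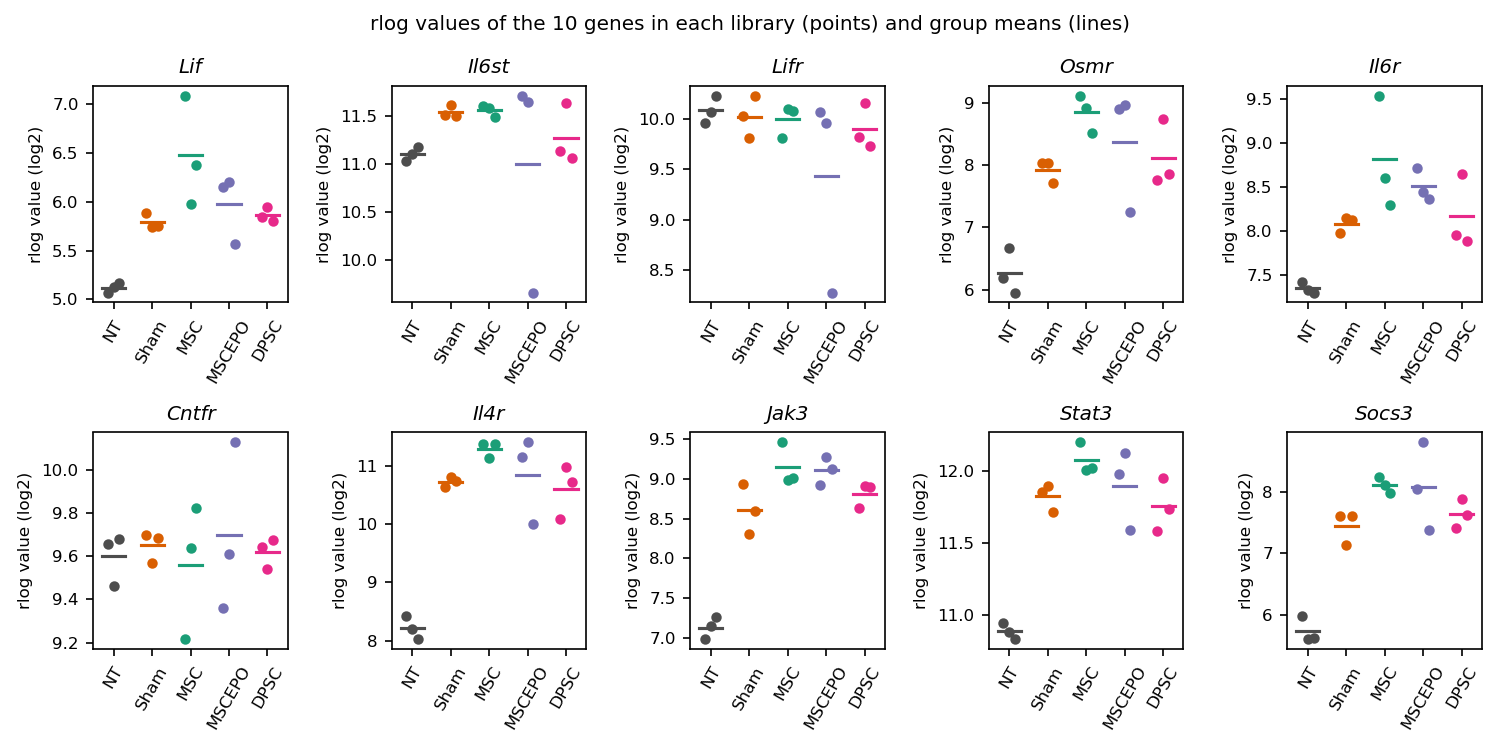
rlog value (log2, vertical axis, a separate scale for each gene) of the 10 genes in the 15 libraries by group. Points are libraries and lines are group means; NT points lie below all others for *Lif*, *Osmr*, *Il6r*, *Il4r*, *Jak3*, *Stat3* and *Socs3*, and the low MSCEPO point for *Il6st* (9.66) and *Lifr* (8.27) is replicate 3.

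*Lif*, the ligand of the set, had low and tight values in NT, at 5.07, 5.13 and 5.17. In Sham they were 5.89, 5.75 and 5.76, a difference of 0.68 (SE 0.23) or 1.60-fold, with no overlap. The MSC libraries were at 7.09, 5.98 and 6.38, all above Sham, and their SD of 0.56 was much wider than the 0.08 of Sham. The mean difference of MSC from Sham was 0.68 (SE 0.23) and dropped to 0.38 without MSC replicate 1, which held the highest *Lif* value of the 15 libraries. MSCEPO (6.15, 6.20 and 5.57) and DPSC (5.85, 5.95 and 5.80) overlapped Sham.

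Of the receptor chains that join gp130, *Osmr*, the oncostatin M receptor, separated the groups most. It was at 6.19, 6.67 and 5.95 in NT, and at 8.03, 8.02 and 7.71 in Sham, which is 3.13-fold higher (difference 1.65, SE 0.40). The MSC libraries reached 9.11, 8.92 and 8.51, above all of Sham by 0.93 on average (SE 0.40). MSCEPO held 8.90, 8.96 and 7.24, so that its replicate 3 was below Sham and the others above it. Without that library the MSCEPO mean was 1.01 above Sham, against 0.45 with it. In DPSC the values were 7.76, 8.73 and 7.85, with replicate 2 high and the others within Sham.

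*Il6r*, the ligand-binding chain for interleukin-6 and known mainly from leukocytes and liver, was at 7.41, 7.32 and 7.30 in NT. Sham was 1.66-fold higher at 7.97, 8.14 and 8.12, a difference of 0.73 (SE 0.27). MSC, at 9.53, 8.60 and 8.29, and MSCEPO, at 8.71, 8.43 and 8.36, both lay wholly above Sham. This was the single component of the 10 for which MSCEPO did not overlap Sham with all its libraries counted. The mean difference of MSC from Sham was 0.73 (SE 0.27), and 0.37 without MSC replicate 1. DPSC values of 7.95, 8.64 and 7.88 straddled those of Sham.

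*Il6st*, encoding gp130 itself, lay between 11.03 and 11.71 in every library other than MSCEPO replicate 3. NT read 11.03, 11.10 and 11.17 and Sham 11.51, 11.61 and 11.50, so that Sham was higher without overlap by 0.44 (SE 0.40). The SE was nearly as large as the difference because the fit shares its spread over the 5 groups, and MSCEPO replicate 3 read 9.66 against 11.71 and 11.64 in the other MSCEPO libraries. MSC values of 11.60, 11.58 and 11.48 overlapped those of Sham, with a difference of 0.02 (SE 0.40) whose sign turned under median centring. DPSC was at 11.13, 11.63 and 11.05.

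*Lifr* and *Cntfr*, the receptor chains for LIF and CNTF, showed no separation of any pair of groups that was compared. *Lifr* ranged from 9.97 to 10.23 in NT, 9.82 to 10.23 in Sham, 9.82 to 10.10 in MSC and 9.73 to 10.16 in DPSC. In MSCEPO it was 10.08 and 9.96 in replicates 1 and 2 and 8.27 in replicate 3, so its difference from NT was -0.65 with that library and -0.07 without it. *Cntfr* spanned 9.46 to 9.68 in NT, 9.57 to 9.70 in Sham, 9.22 to 9.83 in MSC, 9.36 to 10.13 in MSCEPO and 9.54 to 9.68 in DPSC. The differences of Sham from NT were -0.07 (SE 0.35) for *Lifr* and 0.05 (SE 0.18) for *Cntfr*, and both changed sign when single libraries were left out. With SEs of this size the libraries do not show that either gene was unaltered.

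**Figure D2:**
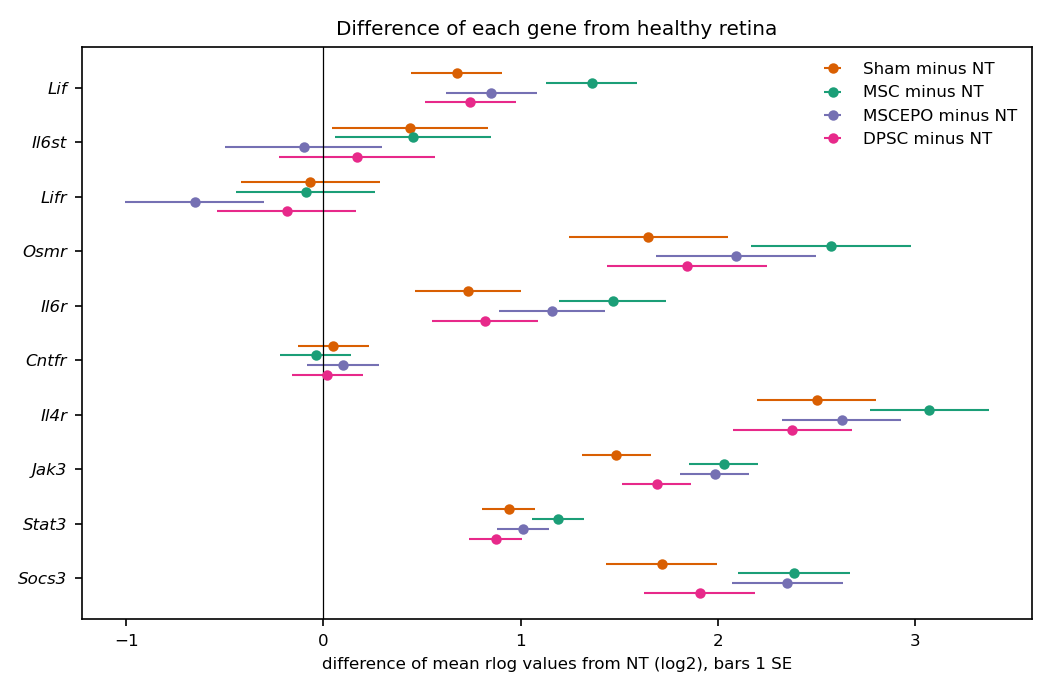
Difference of the mean rlog value of each group from NT (log2, horizontal axis) for the 10 genes, with bars of 1 SE from the fit of all 15 libraries. *Il4r*, *Socs3*, *Osmr* and *Jak3* lie over 1 in every group, while *Lifr* and *Cntfr* lie near 0 apart from *Lifr* in MSCEPO (-0.65).

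Counted over the 10 genes, 8 had every Sham value above every NT value and none had the reverse. Over all genes tested, 16.6% had Sham wholly above NT. A difference was called where limma gave an adjusted p under 0.05 and the log2 difference exceeded 1 (a fold of 2). By this rule *Il4r*, *Jak3* and *Socs3* were called in Sham against NT, 3 of 10 genes beside 45 of 15424 (0.292%) overall. Since the 10 were selected on these same values, nothing is read from either count, or from the counts of the 10 in the comparisons below. The median difference was 0.84 over the 10 genes and 0.00 over all genes tested.

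Against NT, the cell groups gave 7 called components in MSC (*Lif*, *Osmr*, *Il6r*, *Il4r*, *Jak3*, *Stat3* and *Socs3*), 6 in MSCEPO (the same without *Lif*) and 4 in DPSC (*Osmr*, *Il4r*, *Jak3* and *Socs3*), all of them higher. The shares over all genes were 6.70%, 3.57% and 0.784%, and again nothing is read from the counts of the selected genes. The groups did not overlap, with the cell group higher, for 8, 7 and 7 components, beside 22.9%, 16.5% and 16.0% of all genes. The median differences of the 10 genes were 1.41, 1.09 and 0.85. All 4 comparisons with NT share the same 3 NT libraries, so their likeness is not a separate result. When MSCEPO replicate 3 was left out of the fit, the called components were 4 in Sham (*Osmr* joined), 7 in MSC, 7 in MSCEPO and 4 in DPSC, beside 0.493%, 7.11%, 5.41% and 1.26% of all genes.

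The differences from NT were widest in MSC for the components that separated the groups, although MSC and MSCEPO overlapped for each of them. Without MSCEPO replicate 3 the MSCEPO difference was the wider for *Osmr* (2.66 against 2.57), *Socs3* (2.70 against 2.39) and *Il6st* (0.57 against 0.46). *Il4r* was 8.41-fold above NT in MSC, 6.18-fold in MSCEPO and 5.20-fold in DPSC. For *Osmr* the folds were 5.96, 4.27 and 3.59, and for *Socs3* they were 5.23, 5.11 and 3.75. *Jak3* was 4.08-fold, 3.95-fold and 3.22-fold above NT, and *Stat3* 2.28-fold, 2.02-fold and 1.83-fold. *Lif* and *Il6r* were 2.57-fold and 2.76-fold above NT in MSC, and under 2-fold above it in DPSC.

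The Sham group, which carried the toxin and no cells, was the other reference. In MSC 7 of 10 (*Lif*, *Osmr*, *Il6r*, *Il4r*, *Jak3*, *Stat3* and *Socs3*) had all 3 values above Sham, beside 13.1% of all genes. The median difference of the 10 was 0.56. The same 7 were above Sham without MSC replicate 1, beside 19.7% of all genes. None of the 10 was called, and neither was any of the 15424 genes (0%) in MSC against Sham, where limma gave 1463 higher and 589 lower at an unadjusted p under 0.05. This lack of calls does not show that MSC and Sham were alike, since the values are shrunken and the fit shares its spread over all groups. The paper, with DESeq2, reported over- and underexpressed genes for this pair. In MSC against NT without that library, 8 components did not overlap, beside 29.5%.

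In MSCEPO against Sham 1 component (*Il6r*) did not overlap, beside 7.44% of all genes, and 0 were called beside 0.0195%. Without MSCEPO replicate 3 the count was 7, namely *Lif*, *Il6st*, *Osmr*, *Il6r*, *Il4r*, *Stat3* and *Socs3*, beside 20.8%. *Jak3* was left out of it because its value in MSCEPO replicate 1 (8.92) was just under that in Sham replicate 1 (8.94). Against NT without that library, 8 components did not overlap, beside 30.1%. In DPSC against Sham none of the 10 lay wholly above or below, beside 4.75% wholly above over all genes, and 0 were called beside 0.0130%. The 3 comparisons share the Sham libraries.

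Library by library, *Il4r* and *Stat3* followed each other closely. Pearson's r of their rlog values was 0.991 over the 15 libraries, and each was the closest gene to the other among 14489 genes with a symbol. The NT libraries sit far from the rest, which by itself gives a high r. Over the 12 NaIO3 libraries alone r was 0.941, and each was again the closest gene to the other. Without MSCEPO replicate 3 the r over 14 libraries was 0.991. These r values are descriptive, and the libraries share their preparation and the shrinkage of the rlog step.

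**Figure D3:**
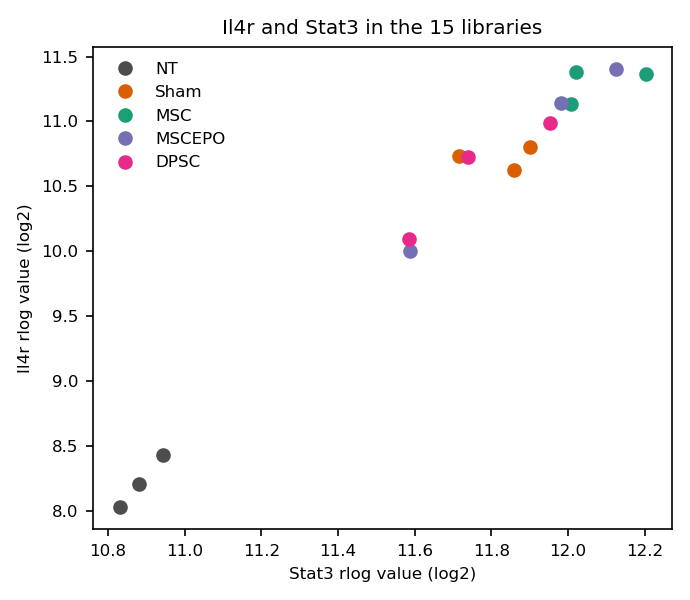
rlog value of *Il4r* (log2, vertical axis) against that of *Stat3* (log2, horizontal axis), 1 point per library in the color of its group. The 3 NT libraries sit at the lower left, apart from the other 12, where r was 0.941.

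The other components differed in which genes they resembled. *Jak3* was closest to *Bcl3* (r = 0.989 over 15 libraries, 0.959 over the 12 without NT), which encodes a partner of NF-κB and is a STAT3 target. *Socs3* was closest to *Sbno2* (0.965, and 0.866 without NT), then to *Il4r* and *Timp1*. *Lif* was nearest to *Stxbp2*, *Relb* and *Nfkb1*, the last of which encode NF-κB subunits, with r from 0.942 to 0.958.

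*Il6r* stood nearest to *RT1-Db1*, a class II histocompatibility gene, and to *Lyn* and *Skap2*, which serve signaling in leukocytes, each with r = 0.984. *Osmr* was nearest to *Mmp19*, *C1s* and *Cp* (r from 0.973 to 0.977). *Lifr* was nearest to *Tnks*, *Gsk3b* and *Pdpk1*, and *Il6st* to *Clpb*, *Traf3* and *Ddx6*. With these nearest genes r was 0.978 or more, and MSCEPO replicate 3 was the lowest library of both *Lifr* and *Il6st*. Between *Lifr* and *Il6st* themselves r was 0.864. *Cntfr* was nearest to *Fbxl19*, *Nrxn2* and *Slc6a8* (0.947 to 0.953), and its closest fellow component was *Jak3* at only 0.02.

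Markers of leukocytes moved with several of these genes. The 5 general leukocyte markers, *Ptprc* among them, summed to 608 to 732 in NT, 1012 to 1700 in Sham, 2573 to 13568 in MSC, 1822 to 4058 in MSCEPO and 1167 to 3067 in DPSC. The highest sum belonged to MSC replicate 1, the library with the highest *Lif*, *Osmr*, *Il6r*, *Jak3* and *Stat3*. In DPSC the highest was replicate 2 (3067), which also had the highest DPSC value of *Lif*, *Il6r*, *Osmr*, *Il4r*, *Jak3*, *Stat3* and *Socs3*. That library differed from DPSC replicates 1 and 3 in other markers too. Its lens sum was 5177 against 510670 and 298238, and its *Gnat1* value 15.21 against 16.76 and 16.83. All 5 leukocyte markers lay wholly above NT in Sham, and wholly above Sham in MSC. Against NT 0 of the 5 were called in Sham, 5 in MSC, 3 in MSCEPO and 0 in DPSC. The shares over all genes were 0.292%, 6.70%, 3.57% and 0.784%. None of the 5 was called in a cell group against Sham. In whole retinas, more cells of a type and more RNA per cell cannot be told apart.

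The 8 markers of microglia and macrophages lay wholly above NT in Sham, 8 of 8 with 0 called, and had sums of 1394 to 1798 in NT, 2630 to 5015 in Sham, 5172 to 14801 in MSC, 5037 to 7711 in MSCEPO and 2611 to 6455 in DPSC. Called higher than NT were 7 of 8 in MSC, 7 in MSCEPO and 1 in DPSC, beside 6.70%, 3.57% and 0.784% of all genes. For the 8 markers of T and NK cells, 0 of 8 separated Sham from NT, with sums of 126 to 143 and 133 to 143. Those markers summed to 258 to 2565 in MSC, 194 to 348 in MSCEPO and 143 to 263 in DPSC, and 8 of 8 lay wholly above Sham in MSC, 8 of 8 in MSCEPO and 5 of 8 in DPSC. Against NT 7 of these 8 were called higher in MSC, 0 in MSCEPO and 0 in DPSC. *Cd3e*, which encodes a chain of the T cell receptor complex, was at 4.16 to 4.34 in Sham and at 9.67, 6.48 and 5.65 in MSC.

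The 4 B cell markers measured summed to 79.7 to 81.9 in NT and 74.8 to 76.4 in Sham, and to 257 to 2482 in MSC, 84.9 to 394 in MSCEPO and 78.5 to 324 in DPSC. Against NT 4 of 4 were called higher in MSC, 0 in MSCEPO and 0 in DPSC. The 4 neutrophil markers summed to 44.4 to 50.6 in NT and 54.2 to 74.6 in Sham, with *Mpo* below 0 on the rlog scale in every library. Only 1 of the 4 passed the filter, *Csf3r*, at 5.02 to 5.24 in NT and 5.36 to 5.94 in Sham. Müller glia markers, 7 of 7 measured, summed to 74609 to 84181 in NT, 75375 to 90602 in Sham and 77019 to 101319 in the cell groups. Of these 7, 3 lay wholly above NT in Sham and 1 wholly below, with 0 called. Wholly above and wholly below NT were 4 and 2 in MSC, 4 and 0 in MSCEPO, and 3 and 1 in DPSC. In each cell group 1 was called higher than NT and 0 lower. The 6 rod markers analysed, *Gnat1* among them, lay wholly below NT in each NaIO3 group, with sums of 466625 to 495169 in NT, 234474 to 302162 in Sham, 146417 to 160651 in MSC, 112532 to 173979 in MSCEPO and 134037 to 258458 in DPSC. The 4 endothelial markers measured lay wholly above NT in Sham, with sums of 10898 to 11949 and 13689 to 16389, and spanned 10301 to 17297 in the cell groups. The part of any of these cell types in the levels of the 10 genes was not tested.

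**Figure D4:**
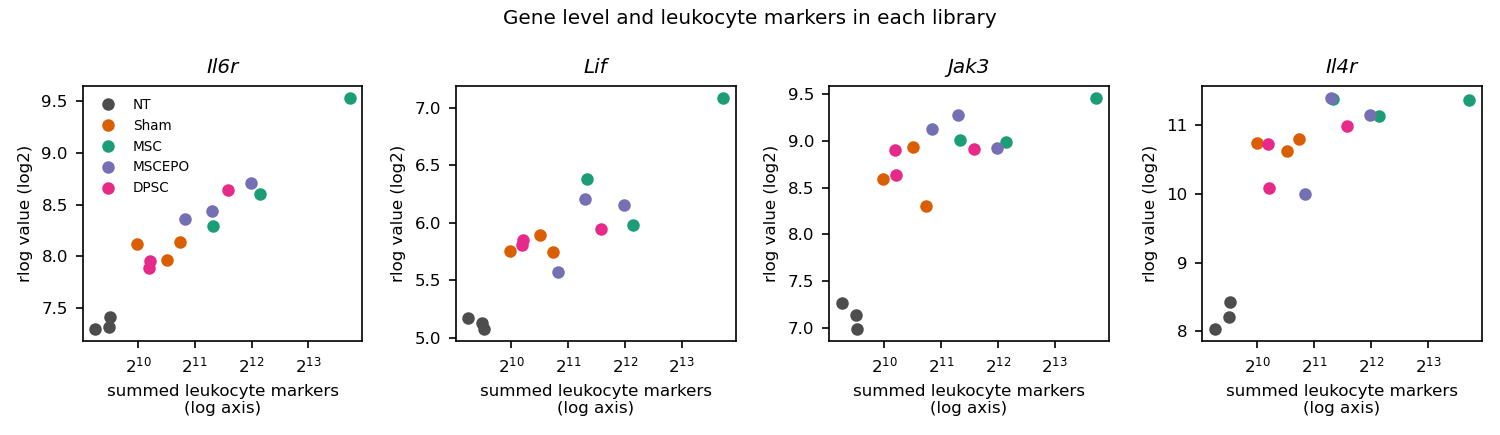
rlog value (log2, vertical axis) of *Il6r*, *Lif*, *Jak3* and *Il4r* against the summed level of 5 leukocyte markers (log axis) in each of the 15 libraries, colored by group. MSC replicate 1, at a sum of 13568, is the rightmost point and is highest for the first 3 genes. Each gene shown lies wholly above NT in Sham, at sums of 1012 to 1700.

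The wider pathway was covered by 87 further genes in 10 lists, of which 82 were measured and 72 tested. These lists were chosen with earlier results of the same data known. Their counts are therefore a description, and nothing is read from their contrast with all genes. In Sham against NT, 6 of the 72 (8.33%) were called, all higher, beside 0.292% of all genes in either direction. In MSC, MSCEPO and DPSC against NT the counts were 24, 15 and 9 of 72, again all higher, beside 6.70%, 3.57% and 0.784% of all genes. Against Sham, limma called 0 of 72 in each cell group. At an unadjusted p under 0.05, MSC against Sham had 27 higher and 1 lower of the 72, MSCEPO 11 and 3, and DPSC 4 and 1. Over all 15424 genes the numbers were 1463 and 589, 492 and 789, and 152 and 214.

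Of 21 STAT3 target genes tested, 5 were called higher in Sham against NT, 12 in MSC, 10 in MSCEPO and 7 in DPSC, and none was called lower. Called or not, the mean was above NT for 16, 19, 18 and 19 of the 21, and below it for the rest. Beside the calls stand the shares of all genes just given, and nothing is read from the contrast, because the list was chosen with earlier results known. Some of these calls were fragile: *Steap4* in MSC was lost in 6 of 9 alternatives, and in DPSC *Ccnd1* was lost in 6 and *A2m* in 5 of 9. *Gfap*, the intermediate filament that marks reactive Müller glia and astrocytes, was at 9.64, 10.08 and 9.43 in NT and at 12.95, 13.53 and 12.80 in Sham, a rise of 3.38 (SE 0.28, limma adjusted p = 0.000403). It was 4.04 above NT in MSC, 4.08 in MSCEPO and 3.40 in DPSC, with adjusted p = 4.79e-05, 2.91e-05 and 0.000375.

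*Bcl3* rose by 1.59 in Sham (SE 0.17, limma adjusted p = 0.00193), and by 2.24, 2.35 and 1.90 in MSC, MSCEPO and DPSC. *Cebpd*, a transcription factor of the acute phase response, rose by 1.43 in Sham (adjusted p = 0.00483), and by 2.22, 2.46 and 1.87 in the cell groups. *Lcn2*, the iron-binding protein lipocalin 2, rose by 1.40 (adjusted p = 0.00674), then 2.43, 2.35 and 1.71. *Timp1*, an inhibitor of metalloproteinases, rose by 1.75 in Sham with adjusted p = 0.0142, and this call was lost when any of NT replicates 1 and 3 and Sham replicates 1 and 2 was left out. Its rises of 2.29, 2.53 and 1.87 in the cell groups were called under each of the 9 alternatives tried for them.

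**Figure D5:**
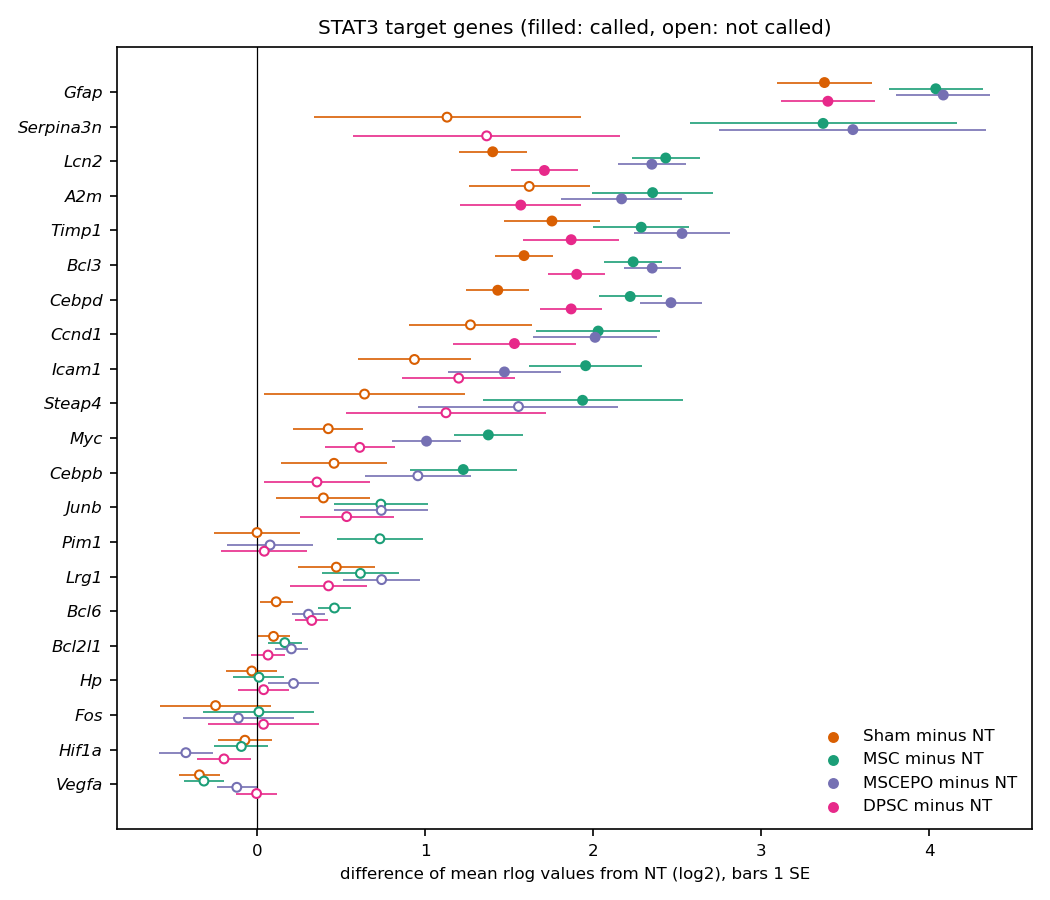
Difference of the mean rlog value from NT (log2, horizontal axis) for the 21 STAT3 target genes tested, with bars of 1 SE; filled points are called by limma and open points are not. *Gfap* lies between 3.38 and 4.08 in the 4 groups, and the 5 genes filled in all groups are *Gfap*, *Lcn2*, *Timp1*, *Bcl3* and *Cebpd*.

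Of 7 other ligands of the gp130 family, all measured, 3 passed the filter. *Cntf*, ciliary neurotrophic factor, rose against NT by 1.10 in MSC (SE 0.18, limma adjusted p = 0.00269), 1.44 in MSCEPO (adjusted p = 0.00054) and 1.05 in DPSC (adjusted p = 0.011), and its difference in Sham was 0.65 (adjusted p = 0.143). Its call in MSC was lost without NT replicate 3, and in DPSC without NT replicate 3 or DPSC replicate 2. *Clcf1*, another ligand of the CNTF receptor, differed from NT by 0.66 to 0.96 and was under the fold required. *Osm*, the ligand of *Osmr*, had group means of 2.76 to 3.03, under the filter, and so did *Il6*, *Il11* and *Il27*.

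The further components of the IL-4 branch gave 0 calls among 4 tested in Sham against NT. *Il2rg*, the common gamma chain on which JAK3 docks, was at 4.94, 4.91 and 4.69 in NT and at 5.55, 5.24 and 5.16 in Sham, a difference of 0.47 (SE 0.64, limma adjusted p = 0.867). In MSC it reached 9.82, 7.87 and 6.87, a rise of 3.34 over NT (adjusted p = 0.00466). *Stat6*, the factor that IL-4 activates, differed from NT by 0.49 in Sham (adjusted p = 0.484) and 0.87 in MSC (adjusted p = 0.0352, under the fold required). Of 8 STAT6 target genes tested, *Ccl22*, a chemokine of macrophages and dendritic cells, was the single call, with a rise of 1.59 in MSC (adjusted p = 0.0113). *Il13ra1* lay near 0.62 in 14 libraries, under the filter, and *Il4* and *Il13* were not analysed here.

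Among the other common gamma chain cytokines and their receptors, 8 genes were tested. The 4 called were all receptors, in MSC against NT alone of the comparisons made. *Il21r* rose by 1.92, *Il2ra* by 1.85, *Il2rb* by 1.80 and *Il7r* by 1.70 (limma adjusted p from 0.00629 to 0.0211). Whether their rises differed between cell groups was not tested. The T and NK cell and B cell markers had their highest sums in MSC replicates 1 and 2. In MSC replicate 3 these sums were 258 and 257, below the 348 and 394 of MSCEPO replicate 1. The call of *Il7r* was lost without MSC replicate 1 and without NT replicate 2 or 3.

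The other Janus kinases gave 0 calls among 3 tested in each of the 7 comparisons. Differences of Sham from NT were 0.06 for *Jak1*, 0.07 for *Jak2* and 0.03 for *Tyk2* (limma adjusted p from 0.958 to 0.977), beside 1.49 for *Jak3*. *Jak2* was 0.64 above NT in MSC (adjusted p = 0.0272) and under the fold required. Of 15 genes of SOCS proteins, PIAS proteins and phosphatases, *Ptpn6*, a phosphatase of blood cells, was the single call, in MSC (2.46) and MSCEPO (1.76), the latter lost without any single NT library or MSCEPO replicate 1 or 2. *Socs1* differed from NT by -0.06 in Sham and 0.34 in MSC and was not called, beside 1.72 and 2.39 for *Socs3*.

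A list of 3 genes tied to LIF in the stressed retina was also tested. *Edn2*, endothelin 2, which stressed photoreceptors are known to release, rose by 1.22 in Sham against NT (SE 0.17, limma adjusted p = 0.00577) and by 1.37, 1.36 and 1.20 in MSC, MSCEPO and DPSC. *Fgf2*, a survival factor of photoreceptors, was 1.64 above NT in Sham without passing the test (adjusted p = 0.106), and rose by 2.07 in MSC (adjusted p = 0.00686) and by 1.54 in MSCEPO (adjusted p = 0.0355), the latter lost when any single NT or MSCEPO library other than MSCEPO replicate 3 was left out. *Ednrb*, the endothelin receptor of Müller glia, rose in MSC (1.31, adjusted p = 0.00856).

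STAT dimers are known to bind the palindrome TTCNNNGAA, and the promoters of the pathway were searched for it on both strands, with 1 search serving both because the motif reads the same on each. Windows from 250 bases before to 50 bases after each start site came from RefSeq on the GRCr8 assembly, which is not the build of the expression values. The motif was in 8.87% of all 33469 windows. An entry was found for 7 of the 10 components (*Il6st*, *Lifr*, *Osmr*, *Il6r*, *Il4r*, *Stat3* and *Socs3*), and 0 of these 7 windows held the motif or its longer form TTCNNNNGAA, which is in 7.28% of all windows. Of the 67 windows of other pathway genes, 11 (16.4%) held TTCNNNGAA and 5 (7.46%) held TTCNNNNGAA. A match is a string of letters and not a site.

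Of the 10 tested genes with a match of either form, 5 were called against NT in at least 1 group (*Fgf2*, *Gfap*, *Icam1*, *Serpina3n* and *Steap4*) and 5 were not (*Bcl2l1*, *Ccl24*, *Cish*, *Klf4* and *Socs1*). Of the 50 tested genes with a promoter entry, 18 were called. The stretches below, all upstream of the start and written 5′ to 3′ on the gene's strand, show 3 genes that were called and 3 that were not. Capitals mark the match. *Serpina3n*, a STAT3 target gene that rose in MSC (3.37, limma adjusted p = 0.0128) and MSCEPO (3.55, adjusted p = 0.0133) against NT, was chosen after its values were seen, and its MSCEPO call was lost without MSCEPO replicate 2. *Gfap* holds the longer form. *Cish* and *Klf4*, a SOCS family gene and a STAT6 target gene, were also chosen after their values were seen, and *Cish* holds 4 matches.
Gfap, chr10:88361823-88361882, - strand: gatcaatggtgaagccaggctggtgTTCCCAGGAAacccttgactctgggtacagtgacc
Serpina3n, chr6:129088244-129088302, + strand: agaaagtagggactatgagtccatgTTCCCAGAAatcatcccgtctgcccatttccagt
Fgf2, chr2:122164301-122164359, + strand: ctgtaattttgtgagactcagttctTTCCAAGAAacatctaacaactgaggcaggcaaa
Socs1, chr10:5389353-5389411, + strand: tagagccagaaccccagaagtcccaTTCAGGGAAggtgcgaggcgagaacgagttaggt
Cish, chr8:116850719-116850883, + strand: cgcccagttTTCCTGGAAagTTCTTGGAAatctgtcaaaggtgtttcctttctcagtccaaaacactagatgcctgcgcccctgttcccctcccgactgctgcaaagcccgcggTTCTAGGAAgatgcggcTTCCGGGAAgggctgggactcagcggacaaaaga
Klf4, chr5:75078685-75078743, - strand: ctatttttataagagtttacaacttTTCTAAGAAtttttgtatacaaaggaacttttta

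*Gfap*, with the longer form, differed from NT by 3.38 to 4.08 in the 4 groups, *Fgf2* rose in MSC and, in a call lost in 5 of 9 alternatives, in MSCEPO, and *Socs1*, with the shorter form, differed from NT by at most 0.34. *Socs3* and *Stat3* themselves, at 1.72 and 0.94 above NT in Sham, hold neither form within these windows, which says nothing of sites outside them.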

How the data were processed

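Messenger RNA of rat retinas was measured in 15 libraries, grouped by their labels into NT, Sham, MSC, MSCEPO and DPSC (n = 3 each). The authors quantified paired reads with Salmon 1.1.0 on the rat transcriptome (Rnor_6.0), summed them to genes with tximport and applied the regularized log of DESeq2. The deposited values are on a log2 scale, already scaled and shrunken, so reads from human cells, depth and detection limits could not be examined. A further 15 columns of per-sample values, a copy of the same numbers, were not used.

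Genes with a mean of at least 3.32 (log2 of 10) were tested with limma 3.58.1 in R 4.3.3: 1 fit of group means over the 15 libraries, a variance trend, and Benjamini-Hochberg adjustment over 15424 genes per comparison. A call needed an adjusted p under 0.05 and a log2 difference over 1. Groups of 3 cannot reach an exact permutation p under 0.1, so none was run. The fit was tested on simulated data.

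The 10 genes and the lists were chosen with earlier results of these data known. Named are the 10 genes, a fixed set of 19 pathway genes (some are not reported here), at most 4 called genes per list and comparison by smallest adjusted p, and for each of the 10 genes the 3 with the highest Pearson r. Alternatives were no filter, the adjusted p alone, a fit of 2 groups, a replicate block, median centring, quantile normalization and each library left out. The 14 libraries without MSCEPO replicate 3 were added after the values were seen.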

Additional observations from a re-analysis of the deposited data

How the results depend on the processing

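No difference of the 10 genes whose groups did not overlap changed sign under median centring, quantile normalization or the loss of a single library. Quantile normalization moved 5 of them by more than the spread between replicates: *Lif* to 0.52 in Sham, 0.57 in MSCEPO and 0.52 in DPSC against NT, *Il6r* to 0.63 in Sham and *Socs3* to 2.10 in MSC. It also moved the median of all genes in MSC against NT to -0.10.

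Among the other pathway genes, the count of calls in Sham against NT went from 6 to 11 in a fit of these groups alone and to 9 without MSCEPO replicate 3. In MSC against Sham it ranged from 0 to 10 as single libraries were left out, and the 10 came without MSC replicate 3, among them *Il2rg* (3.53), *Il2ra*, *Il2rb*, *Il21r*, *Ccl22*, *Il7r*, *Ptpn6*, *Lcn2* and *Myc* (1.15). In MSCEPO against Sham it ranged from 0 to 1, the call being *Serpina3n* (3.66) without MSCEPO replicate 3. The cause of these shifts was not tested. With the replicate block the counts were 9 in Sham against NT, 0 in each cell group against Sham, and 25, 17 and 11 in MSC, MSCEPO and DPSC against NT. The numbers do not pair the samples: over 30 pairs of libraries with the same number, r of their deviations from the group means ran from -0.44 to 0.65 with a median of -0.02. All other counts stayed within 1.5 times the value reported. Depth is unknown, so low genes such as *Osm* and *Il6* could not be judged.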
